A study of Mus musculus with 21 samples.

Results

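The 10 genes of the interleukin-6 (IL-6) family and its Jak-Stat pathway examined here were followed through 4 tables of DNA regions whose capture by a methyl-CpG-binding protein differed between groups of mouse synovial fibroblasts. The genes were the cytokine Lif, the receptor chains Lifr, Il6st, Osmr and Il6ra, the kinases Tyk2 and Jak1, the transcription factor Stat3, the RNA-binding protein Arid5a and the feedback inhibitor Socs3. Every region to which the tables give one of these gene names was taken, whatever its values. They numbered 29 of 49307 regions and belonged to 9 of the 10 genes, Socs3 having none. Of the 29 regions, 24 lay in gene bodies and 5 in promoters, which here means within 3 kb of a transcription start. The tables do not say whether a gene-body region is exonic or intronic. A gene without a listed region has no value, and nothing is known of its methylation here.

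Synovial fibroblasts are the stromal cells of the joint lining. The source animals were arthritis-prone Tg197 mice, transgenic for human TNF, and wild-type (WT) mice, all of the strain CBA x C57BL/6J, and were grown in culture to passages 4 to 5. The 21 libraries formed 7 groups of 3, namely both genotypes at ages of 3, 8 and 11 weeks and, in addition, 8-week WT treated with TNF, whose dose and duration the labels do not give. Each Tg197 group was compared with WT of the same age, and the TNF-treated WT group with the same 3 untreated WT libraries that serve the 8-week Tg197 comparison. The labels do not say whether replicates were separate mice or cultures, so p-values measure the spread between these libraries, which may be technical. Captured DNA carries no expression, so the labelled cell type could not be checked against its markers in these values.

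IL-6 family cytokines signal through the shared receptor chain gp130, encoded by Il6st, which pairs with a cytokine-specific chain such as Il6ra, Lifr or Osmr. Receptor-bound Janus kinases, Jak1 and Tyk2 among them, then phosphorylate Stat3, which enters the nucleus and induces targets including its own inhibitor Socs3. In the inflamed joint, synovial fibroblasts are a known source of IL-6 and of leukemia inhibitory factor (Lif), and Arid5a is known to stabilise Il6 messenger RNA.

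A methyl-CpG-binding protein captures only DNA that holds methylated CG pairs, so the number of CG pairs in a sequence sets how much capture it can give. Here 4 start-site windows of 300 bases, from Lifr, Il6ra and Arid5a, are printed to show that range. In them CG is in capitals and the rest in lower case. The windows are RefSeq promoter sequences of the build GRCm38.p6, reading 250 bases before to 50 bases after a transcription start. The deposited regions are on the build mm9, and coordinates of the 2 builds are not interchangeable. Lifr has 2 annotated starts 10970 bases apart in both builds. The window of the first, chr15:7129322-7129621 on the plus strand, holds 53 CG, more than 99.5% of all 32851 windows in the collection. The window of the second, chr15:7140292-7140591 on the plus strand, holds 4. Il6ra (chr3:89913147-89913446, minus strand) has 25 CG, and Arid5a (chr1:36307483-36307782, plus strand) has 22.
Lifr first start: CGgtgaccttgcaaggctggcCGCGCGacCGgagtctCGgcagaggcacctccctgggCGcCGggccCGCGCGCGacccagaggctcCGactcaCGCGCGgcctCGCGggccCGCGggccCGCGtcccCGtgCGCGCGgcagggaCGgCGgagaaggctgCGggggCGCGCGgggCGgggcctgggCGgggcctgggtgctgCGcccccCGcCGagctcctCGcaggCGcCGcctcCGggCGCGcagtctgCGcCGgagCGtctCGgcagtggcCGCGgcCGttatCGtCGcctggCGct
Lifr second start: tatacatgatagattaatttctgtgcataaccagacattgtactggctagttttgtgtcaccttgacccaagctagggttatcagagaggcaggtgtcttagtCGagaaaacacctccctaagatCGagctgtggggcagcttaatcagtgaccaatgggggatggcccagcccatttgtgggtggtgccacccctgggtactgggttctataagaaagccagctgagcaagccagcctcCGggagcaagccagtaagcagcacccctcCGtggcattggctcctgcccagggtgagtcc
Il6ra: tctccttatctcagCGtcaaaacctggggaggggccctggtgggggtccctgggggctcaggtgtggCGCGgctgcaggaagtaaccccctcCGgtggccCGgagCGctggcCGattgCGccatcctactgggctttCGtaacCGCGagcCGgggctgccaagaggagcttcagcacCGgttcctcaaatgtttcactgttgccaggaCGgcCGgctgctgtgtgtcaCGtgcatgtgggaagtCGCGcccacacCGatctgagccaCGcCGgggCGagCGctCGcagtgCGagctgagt
Arid5a: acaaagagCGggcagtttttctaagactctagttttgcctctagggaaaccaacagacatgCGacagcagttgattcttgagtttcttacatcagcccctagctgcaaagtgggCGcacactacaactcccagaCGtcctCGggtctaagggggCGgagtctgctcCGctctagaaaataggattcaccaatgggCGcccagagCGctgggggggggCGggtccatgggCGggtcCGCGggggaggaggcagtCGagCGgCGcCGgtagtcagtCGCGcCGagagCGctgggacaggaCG
The median window of the collection holds 7 CG, with quartiles of 3 and 20. None of these 4 windows was itself a listed region, and the listed Lifr regions all lay in the gene body. The listed promoter region of Il6ra lay at positions -1367 to -468 from its start, and that of Arid5a lay 1274 to 1773 bases downstream. The letters TTCNNNGAA, the spaced palindrome recognised by Stat proteins, read the same on both strands and occurred in 8.30% of all windows. Among the 11 windows of the 10 genes, 1 held them, that of Socs3. The Lif window of the collection is counted here but not printed, since it belongs to another start than the one its listed regions lie at.

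The members' direction differed between the 4 comparisons. The test was limma on log2(normalized reads + 1) with Benjamini-Hochberg adjustment over the whole table, and passing means an adjusted p under 0.05. The tables list regions already found different, so a large share of every table passes again, and a count of members is read against that share. At 3 weeks all 10 member regions passed, against 85.0% of the 13125 listed regions. Of the 10, 6 rose in Tg197 cells and 4 fell, where 40.3% of the table passed and rose and 44.7% passed and fell. At 8 weeks all 6 member regions had negative log2 differences, against 51.5% of the 11975 listed regions. Of the 6, 4 passed, against 54.0% of the table, where 17.4% passed and rose and 36.6% passed and fell. At 11 weeks all 4 passed, 2 rising and 2 falling, against 77.9% of 7309 regions. There 49.7% of the table passed and rose and 28.2% passed and fell. After TNF all 9 passed and fell, against 93.8% of 16898 regions passing, 29.8% rising and 64.1% falling. With 4 to 10 member regions a table, these counts do not set the members apart from their tables. The treated and WT libraries did not overlap in 9 of 10 member regions at 3 weeks, against 86.1% of the table (40.6% higher and 45.5% lower in Tg197). There was no overlap in any of the 6 at 8 weeks, against 69.6% (27.2% higher and 42.3% lower), or in any of the 4 at 11 weeks, against 83.7% (49.4% higher and 34.3% lower). After TNF they overlapped in none of the 9, against 95.8% of the table without overlap (32.3% higher and 63.5% lower).

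**Figure D1:**
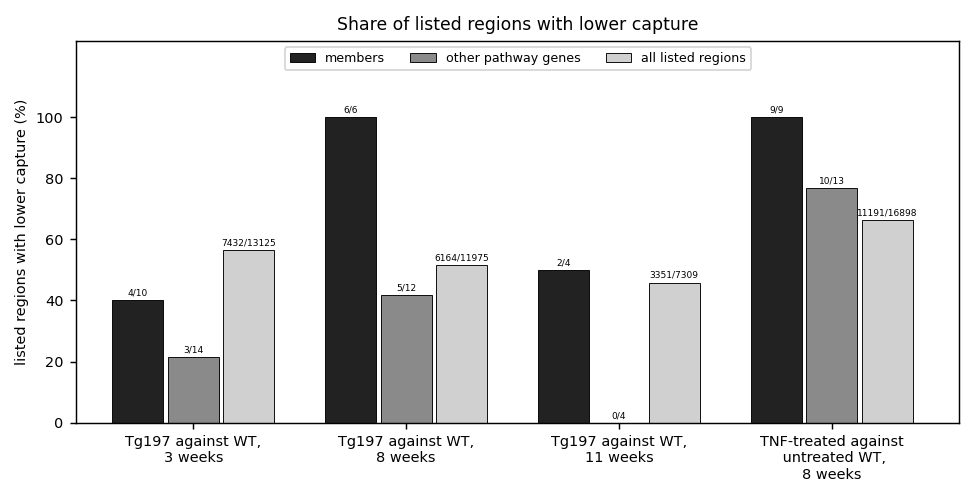
Share of listed regions with lower capture in Tg197 or TNF-treated libraries (y axis, percent) in each comparison (x axis), for the members, for other genes of the pathway and for all listed regions, with the numbers above the bars. All 6 member regions at 8 weeks and all 9 after TNF were lower, while at 3 weeks it was 4 of 10.

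The cytokine gene Lif was listed beside its start at 2 ages, in intervals that overlap downstream of the start site. At 8 weeks the region chr11:4167351-4167900, 254 to 803 bases downstream of the start, had 38.0, 36.7 and 55.3 normalized reads in WT libraries and 23.9, 14.5 and 8.83 in Tg197 libraries. Every Tg197 library was below every WT library, and capture fell by 1.48 on the log2 scale (SE 0.41, limma adjusted p = 0.0428). At 11 weeks the region chr11:4167001-4167900, from 96 bases upstream to 803 downstream, had 53.0, 42.8 and 49.7 in WT and 23.1, 24.1 and 18.1 in Tg197. Again no library overlapped, and capture fell by 1.13 (SE 0.25, limma adjusted p = 0.0219). The 2 intervals shared 550 bp, and their libraries were all different. Of the 11975 regions listed at 8 weeks, 330 (2.76%) overlapped a region of the 11-week table, which is 4.47% of that table seen from its side, and 41.5% of these had the same direction. Surroundings differed between the ages. Within 1 Mb of Lif all 19 other regions listed at 8 weeks were lower in Tg197, whereas at 11 weeks 2 were higher and 2 lower.

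Lifr, the receptor chain that binds Lif and pairs with gp130, had the most regions of any member, 7, and was the member listed in all 4 tables. They clustered near 28 to 29 kb, 40 kb and 53 kb from the first start, with a further interval 50 kb from the second start.

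Near 28 kb the Tg197 and TNF comparisons gave opposite directions at neighbouring positions. At 3 weeks chr15:7108001-7108500 had 21.6, 19.0 and 23.9 normalized reads in WT and 52.9, 33.9 and 46.5 in Tg197, a rise of 1.00 (SE 0.24, limma adjusted p = 0.00246). At 11 weeks chr15:7107651-7108300 had 6.80, 11.2 and 9.74 in WT and 25.5, 16.0 and 36.2 in Tg197, a rise of 1.35 (SE 0.39, limma adjusted p = 0.0219). These intervals overlapped by 300 bp and came from different libraries, and in both every Tg197 library was above every WT library. Of all 304 regions of 3 weeks that overlapped an 11-week region, 84.9% had the same direction. In the TNF comparison chr15:7108751-7109300, 250 bp from the 3-week interval and 450 bp from the 11-week one, had 58.2, 70.8 and 43.0 in untreated cells and 29.9 and 23.6 in treated cells. That was a fall of 1.06 (SE 0.26, limma adjusted p = 0.0109), which was -0.22 with an adjusted p of 0.492 after the libraries were rescaled to equal median log2 ratio. The tables were normalized separately and the intervals do not coincide, so the difference in direction between Tg197 and TNF was not tested. Opposite directions were the more common case between these comparisons. Of the 672 regions of 3 weeks that overlapped a TNF region, 30.5% had the same direction. For the 333 such regions of 11 weeks it was 28.2%.

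Further into Lifr, the 3-week interval chr15:7119701-7120350 had 15.0, 7.24 and 10.2 in WT against 32.4, 31.1 and 31.6 in Tg197 (log2 difference 1.52, SE 0.30, limma adjusted p = 0.00166). The Tg197 libraries were nearly equal here, with a mean of 31.7 ± 0.643 (SD, n = 3). At 8 weeks chr15:7132051-7132600, 53 kb from the start, had 36.4, 24.7 and 15.5 in WT and 10.6, 6.92 and 1.47 in Tg197. Capture there fell by 2.04 (SE 0.66, limma adjusted p = 0.0429), without overlap.

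The last Lifr interval carried many reads and a small difference. At 3 weeks chr15:7140201-7140750 had a mean of 332 ± 18.9 in WT and 289 ± 20.3 in Tg197 (SD, n = 3 each), with libraries at 350.2, 333 and 312 against 281, 312 and 274. The lowest WT and the highest Tg197 library were almost equal. Capture fell by 0.20 on the log2 scale (SE 0.07, limma adjusted p = 0.0183), and the call was lost without Tg197 library 1 (0.0615), Tg197 library 3 (0.0810) or WT library 1 (0.0507). The authors' deposited table gives this region the same log2 value of -0.20 with a region p of 0.277, and a best-window p of 2.26e-11. At 8 weeks the overlapping interval chr15:7140301-7140800 shared 450 bp with it. Its means were 242 ± 9.32 in WT and 215 ± 5.59 in Tg197 (SD, n = 3 each), a log2 difference of -0.17 that did not pass (SE 0.15, limma adjusted p = 0.310).

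Il6st, encoding the shared chain gp130, was listed at 2 ages and higher in Tg197 at both, at different places. At 3 weeks chr13:113291251-113291850, 37.3 kb into the gene, had 11.3, 5.43 and 11.4 in WT and 20.52, 22.63 and 25.72 in Tg197. At 11 weeks chr13:113272901-113273800, 19.1 kb into the gene, had 10.9, 3.72 and 7.80 in WT and 25.5, 20.6 and 27.6 in Tg197. Neither overlapped between groups, and the rises were 1.27 (SE 0.33, limma adjusted p = 0.00298) and 1.68 (SE 0.42, limma adjusted p = 0.0219). Il6st was the member with more than 1 region in which every region rose. No Il6st region was listed at 8 weeks or after TNF.

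Osmr, the specific chain of the oncostatin M receptor, was lower in all 4 of its regions. At 3 weeks chr15:6819751-6820250, 4.3 kb from the start, held 389.7, 352 and 376 normalized reads in WT and 361, 323 and 318 in Tg197. This was the region of the 29 in which the groups overlapped, and its fall of 0.16 was near the threshold (SE 0.07, limma adjusted p = 0.0477). It failed the test in 6 of 12 alternative analyses, with adjusted p up to 0.165, among them those without Tg197 library 2 or 3 or without WT library 1 or 3.

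The other Osmr regions lay more than 50 kb from its start and held few reads. At 8 weeks chr15:6768251-6768750 had 20.3, 16.5 and 11.1 in WT and 0, 4.84 and 5.88 in Tg197 (log2 difference -2.27, SE 0.79, limma adjusted p = 0.0463). At 8 weeks chr15:6773401-6774000 had 40.6, 16.5 and 18.8 in WT and 2.65, 7.61 and 10.3 in Tg197 (-1.78, SE 0.58, limma adjusted p = 0.0431). After TNF chr15:6769751-6770350 had 23.1, 19.0 and 16.0 in untreated and 7.96 and 4.96 in treated cells (-1.46, SE 0.42, limma adjusted p = 0.0110). All 3 were without overlap. With libraries rescaled to equal median log2 ratio, the TNF difference was -0.63 (limma adjusted p = 0.165). The TNF interval began 1000 bp from the first of the 8-week intervals, and both are set against the same WT libraries, so their directions are not independent.

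Il6ra, the IL-6 binding chain, rose in Tg197 at 3 weeks deep in the gene and fell after TNF near its start. At 3 weeks chr3:89678501-89679000, 38.3 kb from the start, had 13.2, 18.1 and 19.3 in WT and 35.6, 32.1 and 29.7 in Tg197, a rise of 0.92 (SE 0.26, limma adjusted p = 0.00407). After TNF the promoter region chr3:89717551-89718450 had 55.6, 67.8 and 59.0 in untreated and 30.9 and 34.7 in treated cells, a fall of 0.87 (SE 0.21, limma adjusted p = 0.0109). Another 2 regions inside the gene lay close to it. The region 4.2 kb from the start, chr3:89712601-89713200, had 38.5, 17.5 and 12.3 against 1.99 and 8.68, the treated values resting on 2 and 7 reads (-1.99, SE 0.62, limma adjusted p = 0.0131). That 6.1 kb from the start, chr3:89710701-89711200, had 42.0, 39.6 and 43.0 against 22.9 and 13.6 (-1.18, SE 0.29, limma adjusted p = 0.0109). In all 4 the groups did not overlap. After the libraries were rescaled to equal median log2 ratio, no TNF call of Il6ra remained. The differences were then -0.04 at the promoter, -1.16 at 4.2 kb and -0.35 at 6.1 kb (limma adjusted p = 0.911, 0.0884 and 0.347). The call at 4.2 kb was lost without the duplicated TNF library (adjusted p = 0.111).

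**Figure D2:**
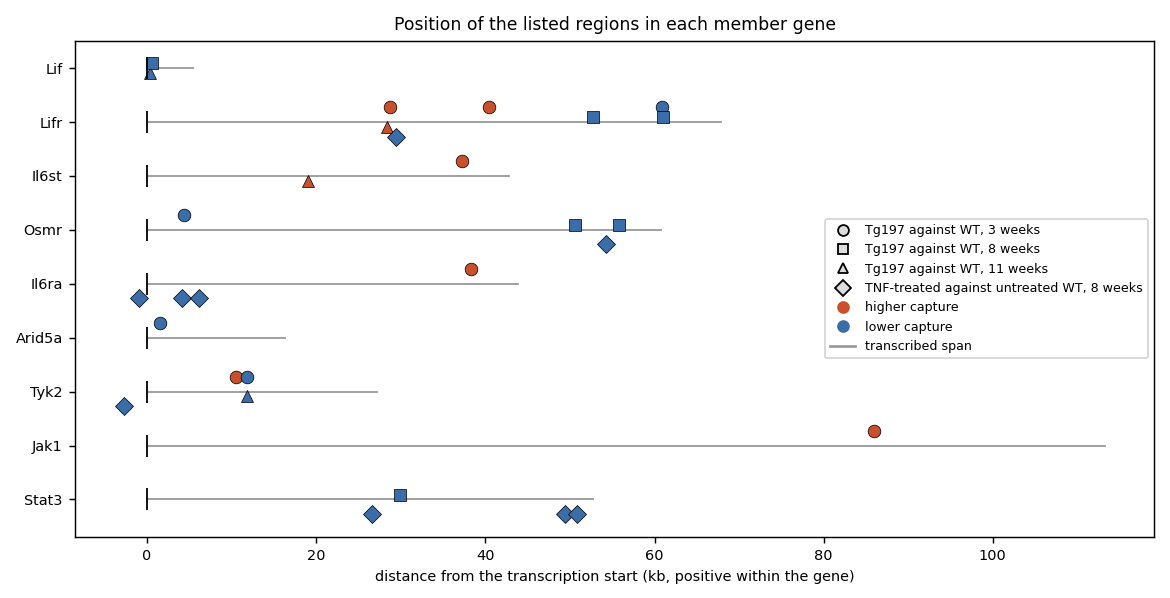
Position of the 29 listed regions along each member gene, as distance from the transcription start in kb (x axis, positive within the gene), with the shape giving the comparison and the colour the direction. The Lif regions of 8 and 11 weeks overlap just downstream of the start, the Tyk2 regions of 3 and 11 weeks coincide at 11.9 kb, and near 28 to 29 kb in Lifr the Tg197 regions are higher and the TNF region lower; distances for Lifr are all from its first start here.

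Tyk2, a Janus kinase of IL-6 family and interferon receptors, held the interval that recurred exactly. The 1000 bp at chr9:20923351-20924350, 11.9 kb into the gene, were listed with the same ends at 3 and at 11 weeks. At 3 weeks they had 205, 154 and 247 normalized reads in WT and 75.6, 112 and 79.1 in Tg197. At 11 weeks they had 133, 121 and 128 in WT and 31.1, 65.3 and 69.8 in Tg197. Every Tg197 library was below every WT library at both ages, and capture fell by 1.17 (SE 0.16, limma adjusted p = 0.000694) and by 1.27 (SE 0.31, limma adjusted p = 0.0219). Of the 13125 regions listed at 3 weeks, 304 (2.32%) overlapped an 11-week region, or 4.21% of the 11-week table, and 84.9% of them had the same direction.

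Only 650 bp away, Tyk2 changed the other way. The 3-week interval chr9:20925001-20925500, 10.5 kb from the start, had 48.8, 46.1 and 42.0 in WT and 70.2, 81.1 and 75.2 in Tg197. It rose by 0.71 (SE 0.15, limma adjusted p = 0.00201), again without overlap. After TNF the upstream region chr9:20938051-20938750, at positions -3032 to -2333 from the start, had 23.1, 26.7 and 28.3 in untreated and 7.96 and 12.4 in treated cells. It fell by 1.30 (SE 0.36, limma adjusted p = 0.0109). With libraries rescaled to equal median log2 ratio, this difference was -0.47 (limma adjusted p = 0.271).

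Jak1, the kinase most IL-6 family receptors depend on, had 1 region, at 3 weeks. The interval chr4:100851701-100852200, 85.9 kb into the gene, had 11.3, 3.62 and 1.14 in WT and 17.3, 20.7 and 19.8 in Tg197. It rose by 2.03 (SE 0.49, limma adjusted p = 0.00250), the largest rise among the members on this scale. The WT values rest on 12, 4 and 1 reads, so the size of the difference is imprecise.

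Stat3, the main transcription factor of the pathway, was lower in all 4 of its regions, 3 of them after TNF. With libraries rescaled to equal median log2 ratio, no TNF call of Stat3 remained, and the differences were -0.19 to -0.78. The interval chr11:100749601-100750400 had 53.1, 48.0 and 36.9 in untreated and 22.9 and 19.8 in treated cells (-1.06, SE 0.26, limma adjusted p = 0.0109). Beside it, chr11:100751101-100751600 had 81.3, 60.9 and 50.4 against 35.84 and 26.04 (-1.02, SE 0.26, limma adjusted p = 0.0109). Both lay about 50 kb into the gene. Nearer the start, at 26.6 kb, chr11:100773951-100774450 had 17.1, 12.2 and 11.1 against 1.99 and 6.20, the treated values resting on 2 and 5 reads (-1.62, SE 0.53, limma adjusted p = 0.0154). The last call was lost without the duplicated TNF library (adjusted p = 0.0930) and without WT library 1 (0.0589).

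The Stat3 region of the 8-week Tg197 comparison lay close to the threshold, with unlike Tg197 libraries. At chr11:100770701-100771200, 29.9 kb into the gene, WT libraries had 41.4, 42.0 and 33.2 normalized reads, and Tg197 libraries 7.95, 31.1 and 2.94. Library 2 lay just under the WT range and the other 2 far below it. The log2 difference of -1.93 (SE 0.72) did not pass, with a limma adjusted p of 0.0534. With all libraries kept it passed at a pseudocount of 5 (0.0468) and after rescaling to equal median log2 ratio (0.0479). Without library 2 it was -2.74 with 0.0163. In every other alternative analysis it did not pass, with adjusted p up to 0.140. Without library 2 the calls of the whole table also rose, from 6470 to 8849. The same Tg197 library was within the WT range at 17.2% of all listed 8-week regions, against 7.01% and 6.29% for libraries 1 and 3. The 3 Tg197 libraries also differed on the X chromosome, where the median log2 ratio to WT over 981 listed regions was -0.09 in library 2, 1.14 in library 1 and 0.75 in library 3. The part of this difference between libraries in the Stat3 values was not tested.

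Arid5a had 1 region, in its promoter class, and it was lower in Tg197 cells at 3 weeks. At chr1:36365851-36366350 WT libraries had 15.0, 21.7 and 28.4 normalized reads and Tg197 libraries 6.48, 10.4 and 3.96. The groups did not overlap, and capture fell by 1.55 (SE 0.37, limma adjusted p = 0.00246). This was the largest fall among the members at 3 weeks. Differences over all regions listed at that age had a median of -0.12 and reached -3.51. The Arid5a values rest on 16, 24 and 25 reads in WT and 6, 11 and 4 in Tg197, so the size of the fall is imprecise. Of 10 other regions within 1 Mb, 8 were higher in Tg197 and 2 lower.

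**Figure D3:**
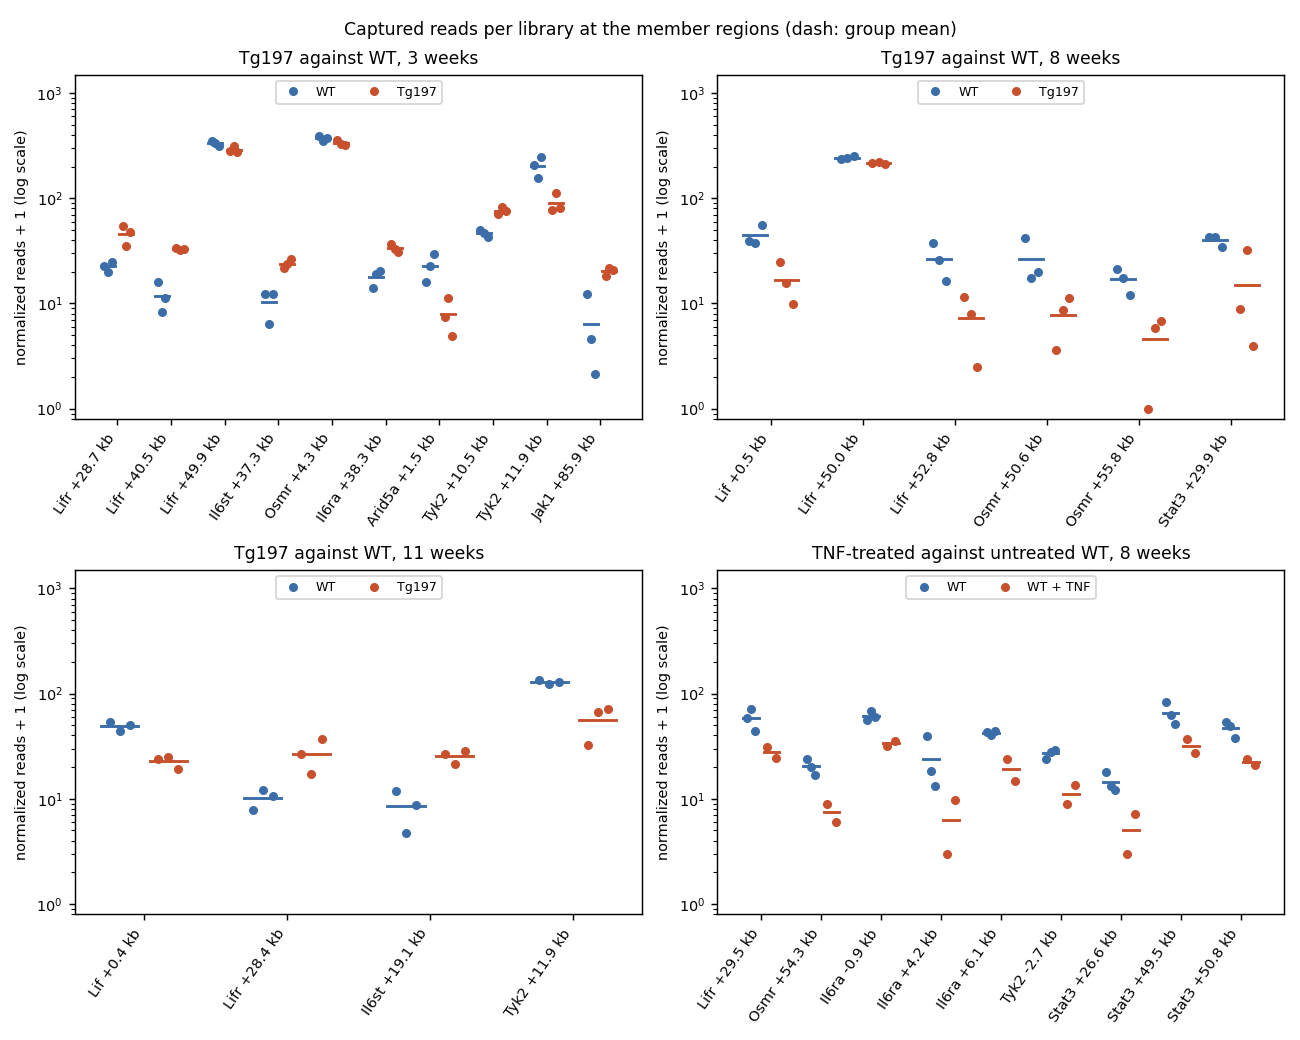
Normalized reads + 1 of every library (y axis, log scale) at each member region (x axis, gene and distance from the transcription start in kb, for the Lifr region near 50 kb from its second start) in the 4 comparisons; points are libraries and dashes group means. Identical TNF libraries 1 and 2 are drawn once, and in the 8-week panel Tg197 library 2 stands near the WT libraries at Stat3.

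Over the 3-week members the median log2 difference was 0.82, against -0.12 for all listed regions. The median level, taken as the mean of both groups, was 28.8 normalized reads in the members and 161 in all listed regions. These medians thus cover regions of unlike read level, and a comparison at equal level was not made. The 2 smallest falls, at Osmr and at Lifr 49.9 kb from its second start, were the member calls lost when a library was left out or the libraries were rescaled. The other 8 member regions kept their call in each of these analyses.

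At 8 weeks every Tg197 library was below every WT library in all 6 member regions, against 42.3% of the table in that direction. The median log2 difference was -1.85 in the members and -0.22 in the table. Read levels were again unlike, with a median of 21.2 normalized reads in the members and 42.6 in the table. The calls depended on 4 particular libraries, namely Tg197 libraries 1 and 3 and WT libraries 1 and 2. When any 1 of these was left out, no member region and no region of the table passed. The number of member regions at an unadjusted p under 0.05 was then 4, 4, 1 and 3. The 4 called differences stayed negative with any library left out, from -1.15 to -1.82 at Lif, -1.38 to -2.77 and -1.30 to -2.12 at the Osmr regions and -1.39 to -2.51 at Lifr. The smallest value of the Osmr region 55.8 kb from its start came without Tg197 library 1. Without WT library 3 the members had 1 call, and without Tg197 library 2 they had 5. Rescaling the libraries to equal median log2 ratio moved the share of rises among all calls of the table from 32.3% to 47.8%, and 5 member regions then passed, all lower.

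At 11 weeks the members' median log2 difference of 0.11 lay below the 0.76 of the table, with 2 regions on each side. Their median level was 26.4 normalized reads, against 35.3 in the table. Leaving out Tg197 library 1, Tg197 library 3 or WT library 2 ended the call of every member region, although all 4 kept an unadjusted p under 0.05. The whole table then had 10, 0 and 0 calls. Rescaling moved the share of rises among all calls from 63.8% to 44.2%, and the 4 member calls kept their direction.

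In the TNF comparison all 9 member regions had every treated library below every untreated one, against 63.5% of the table in that direction. The members' median log2 difference of -1.18 was near the -1.08 of all listed regions. Within 1 Mb of the Stat3 regions near 50 kb 34 of 37 other listed regions were lower, and within 1 Mb of those of Il6ra 24 of 25. Rescaling the libraries to equal median log2 ratio shifted every difference by 0.83. No member region then passed (1 had an unadjusted p under 0.05), with differences of -0.04 at the Il6ra promoter to -1.16 at the Il6ra region 4.2 kb from its start. The share of rises among all calls of the table moved from 31.7% to 81.4%. TNF-treated libraries 1 and 2 held identical values in all 16898 regions and were counted as 1, so this comparison is of 2 treated libraries with 3.

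**Figure D4:**
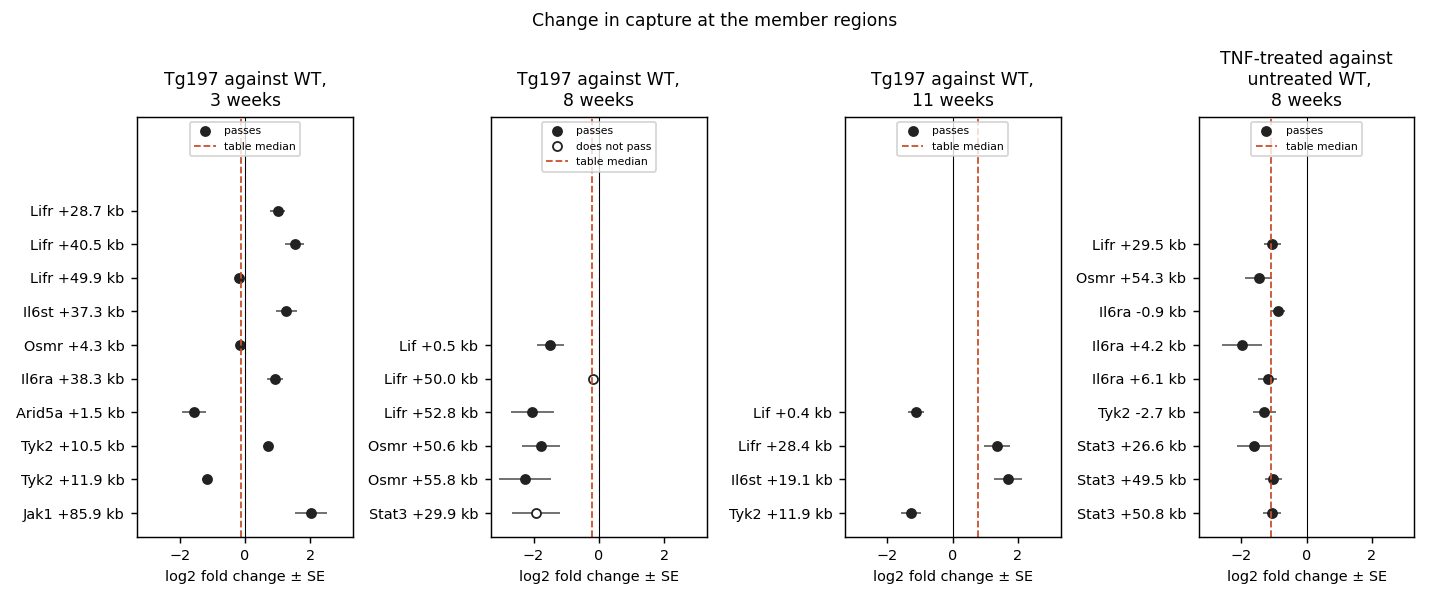
Log2 difference ± SE on the log2(normalized reads + 1) scale (x axis) at each member region (y axis, gene and distance from the start in kb) in the 4 comparisons; filled points passed the test, open points did not, and the dashed line is the median of all listed regions. The TNF differences scatter around their table's median of -1.08, and those of 8 weeks lie below theirs except at the Lifr region 50 kb from its second start, which is close to it.

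The wider pathway was read from a list of 59 further genes. They were cytokines, receptors, kinases, Stat factors, inhibitors, RNA regulators, the shedding proteases Adam10 and Adam17, and target genes such as Nfkbiz and Bcl3. Of the 59 genes, 22 had 43 listed regions and 37 had none. At 3 weeks all 14 regions passed, 11 rising and 3 falling, where 85.0% of the table passed, 40.3% rising and 44.7% falling. The rises included Rc3h2, encoding an RNA-binding repressor of the roquin family (13.1 ± 4.70 in WT to 33.8 ± 5.89 in Tg197, SD, n = 3, log2 difference 1.35, limma adjusted p = 0.00219). Ptpn6, encoding the phosphatase SHP-1, rose by 1.08 (limma adjusted p = 0.00233) and Nfkbiz, a nuclear co-factor for Il6 transcription, by 1.31 (0.00249). The promoter of Il31ra, another chain of the gp130 receptor group, rose by 1.55 (limma adjusted p = 0.00275), and a second promoter region of it, whose groups overlapped, by 0.42 (0.0347). The falls were in Ptpn11, encoding the gp130-associated phosphatase SHP-2 (-0.43, limma adjusted p = 0.00163), and in Stat5b (-0.36 and -0.25).

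At 8 weeks 3 of the 12 regions of the wider list passed, 1 rising and 2 falling, where 54.0% of the table passed. Cntfr, the ciliary neurotrophic factor receptor chain, rose from 45.9 ± 8.49 to 83.3 ± 19.3 (SD, n = 3 each, log2 difference 0.84, limma adjusted p = 0.0428). The phosphatase gene Ptpn2 (-1.45) and the NF-kappaB co-factor gene Bcl3 (-1.95) fell, each with a limma adjusted p of 0.0428. The next in order did not pass, with log2 differences of 0.52 in Stat4, -1.30 in Nfkbiz and -0.55 in Stat2 and limma adjusted p of 0.0650, 0.0687 and 0.107. The 4 regions of Jak3, the kinase of lymphoid cytokine receptors, had log2 differences of 0.51 to 1.30 and did not pass.

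At 11 weeks all 4 regions of the wider list passed and rose, where 77.9% of the table passed and 49.7% passed and rose. Among them Cntfr rose by 1.20, Il12rb2 by 1.04 (each with a limma adjusted p of 0.0219) and Stat5b by 1.37 (0.0271). The Cntfr interval shared 400 bp with that of 8 weeks, and both rose.

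After TNF 10 of 13 regions of the wider list passed, 9 falling and 1 rising, where 93.8% of the table passed, 64.1% falling and 29.8% rising. Falls included Il12rb1 (-3.20, from 20.4 ± 7.19, n = 3, to 1.99 ± 2.81, n = 2), the Il27ra promoter (-2.02) and Ptpn6 (-2.0), each with a limma adjusted p of 0.0109. Their treated values rest on 4 and 0 reads, 7 and 1 reads, and 4 and 2 reads, so the sizes of these falls are imprecise. Zc3h12a, encoding the RNase Regnase-1 that degrades Il6 messenger RNA, fell by 0.99 (limma adjusted p = 0.0109). Ptpn11 had 4 regions, of which 1 rose by 1.18 (limma adjusted p = 0.0109) and the other 3 had differences of -0.86, -1.25 and -2.13, all passing. The TNF falls are subject to the same shift on rescaling as those of the members.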

How the data were processed

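MethylCap-seq libraries of 21 samples were analysed from 4 deposited tables. Per the labels' protocols, DNA was sonicated to about 250 bp, enriched with a methyl-CpG-binding protein, eluted at low and high salt with both fractions pooled, and sequenced as paired 100 bp reads. Per the submitters' processing notes, the build was mm9 and the tools were BWA, TopHat, TopHat2, Cufflinks and Cuffdiff, without their roles. How regions were called, tested and filtered is, in the sources used here, not given. Per the file headers, the authors give each region a group mean signal (normalized reads), a log2 fold change and p-values of the region as a whole and of the best window in it. The 3 library values of a group stand packed in 1 deposited cell without replicate numbers, and libraries are therefore numbered in the order of that cell. The treatment columns were taken as Tg197 or as TNF-treated, the control columns as WT, and 0 columns were left out.

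Each table was normalized separately by the authors and was fitted alone with limma 3.58.1 in R 4.3.3 (mean trend, log2(value + 1), two-sided, Benjamini-Hochberg over the table, threshold 0.05). Differences on this scale understate changes of regions with few reads. With 3 libraries against 3, an exact permutation test of 1 region could not give a p below 0.1. No filter on low values was used, so all 29 member regions were tested. TNF-treated libraries 1 and 2 were identical at every region and entered as 1. Library values were whole multiples of 1 read's worth (100% within 0.1, read over values of up to 100 reads), and even values made up 57.0% to 68.4% of the read numbers of 20 or less. Reads recovered in listed regions were 2230884 to 2875555 per library at 3 weeks, 695108 to 1143699 at 8 weeks, 385155 to 544797 at 11 weeks and 1285304 to 1858694 in the TNF comparison; depth outside them is unknown. Promoter sequences came from RefSeq tables matched by gene symbol (all 10 genes).

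The members and the list of 59 further genes were chosen with earlier results of these data known. All member regions that passed or lay in promoters are given with their library values. Of the further genes, the 6 regions with the smallest p per table and promoter regions that passed are named, except some that are not reported here. Markers of 4 cell types were counted: fibroblast markers had 7 listed regions (2 rising, 4 falling, 1 not passing), macrophage markers 5 (2 rising, 3 falling), endothelial markers 17 (5 rising, 8 falling, 4 not passing) and lymphocyte markers 5 (1 rising, 4 falling). These counts pool 4 comparisons whose shares of all listed regions differ. At 3 weeks 40.3% passed and rose and 44.7% passed and fell, and at 8 weeks 17.4% and 36.6%. At 11 weeks it was 49.7% and 28.2%, and after TNF 29.8% and 64.1%. Endothelial markers had 0 rising and 4 falling at 3 weeks, but 3 rising and 0 falling at 11 weeks. The part of any marker in the results was not tested. Alternatives were other pseudocounts, a filter, no mean trend, rescaled libraries, each library left out, adjustment over all windows implied by the deposited p and adjusted p, and limma voom on recovered reads, the last chosen after seeing the data.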

Additional observations from a re-analysis of the deposited data

How the results depend on the processing

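Over 12 alternatives at each of the 29 member regions, no direction reversed. Of these 348 values, 286 kept their side of the threshold, 59 lost the call and 3 gained it. The adjustment over all windows was not among the 12. The filter was, but it removed no region at 3, 8 or 11 weeks and no member region after TNF. At those ages it could therefore change no call. Adjusting over all windows implied by the deposited p-values left 24 listed regions at 3 weeks (11153 before) with 1 member, Tyk2, and 0 listed and 0 member regions in each of the other 3 comparisons, where limma gave 8127, 5952 and 15904 listed regions at an unadjusted p under 0.05. A pseudocount of 0.1 left 0 listed (7511 unadjusted) and 0 member regions at 8 weeks. Rescaling the TNF table gave 7143 listed calls (5816 rising, 1327 falling) where there had been 15855 (5028 rising, 10827 falling), and 0 member calls where there had been 9. Rescaling each of the other tables shifted its differences by 0.06, 0.13 and -0.30 at 3, 8 and 11 weeks.

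Leaving out 1 library gave 10133 to 10848 listed and 8 to 10 member calls at 3 weeks, 0 to 8849 and 0 to 5 at 8 weeks, 0 to 5511 and 0 to 4 at 11 weeks, and 10967 to 15870 and 7 to 9 after TNF. Where this left 1 TNF library, it was assumed to vary like the other group. Limma voom on recovered reads gave 11254, 5871, 5142 and 15754 listed calls. The planned count test with another tool was not run, and voom on the recovered reads stands in its place. No paired analysis was possible because the library values carry no replicate number. Member regions held 0 to 415 recovered reads per library, which limits the low regions most.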
